A study of Mus musculus with 86 samples.

Results

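This account covers the genes of fatty acid uptake and oxidation in mouse hearts after 14 days of isoproterenol, a drug that stimulates beta-adrenergic receptors. A list of 34 genes was followed, from the release of fatty acids outside the cell to the transfer of electrons into the respiratory chain. A probe set was named for 33 of them among the 18193 genes named on the array. Acsl1, an acyl-CoA synthetase, was not analysed here. All 33 genes passed the filter on dim genes and were compared with the other genes of a total of 11962. Each gene was read from its brightest probe set, and values are log2 of the deposited intensity, on a scale where the median probe set of each array is 0.

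Mice of 4 lines were randomised to isoproterenol at 120 µg/g/day or to no treatment. FVB gave 10 untreated and 12 treated arrays. C57BL/6 gave 11 untreated and 10 treated arrays, B2KO gave 10 of each kind, after treated replicates 4 and 9, whose values were nearly identical, were averaged and counted as 1 sample, and B6129SF2/J gave 10 untreated and 12 treated arrays. FVB and C57BL/6 are inbred lines, B6129SF2/J is a hybrid line, and the labels do not explain the name B2KO further. The series describes systolic dysfunction of the left ventricle after infusion in FVB and B2KO and diastolic dysfunction in C57BL/6, and uses B6129SF2/J as a separate group for prediction. The RNA came from hearts, so fewer cells of a type and less RNA per cell cannot be told apart. The protocol in the labels speaks of fewer mice in FVB, C57BL/6 and B2KO than there are arrays, and the labels do not say that every array came from a separate mouse, so a p-value here weighs a difference against the spread of arrays, which may be partly technical.

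The adult heart draws most of its energy from fatty acids. Lipases free them, transporters and binding proteins carry them into and through the cardiomyocyte, and synthetases couple them to coenzyme A. The carnitine shuttle moves the acyl chains into mitochondria, where the beta-oxidation spiral shortens them step by step and hands electrons to the electron transfer flavoprotein. Unsaturated chains need extra isomerases and a reductase before they can pass through the spiral. Many of these genes are known targets of PPAR-alpha and of the estrogen-related receptors, nuclear receptors that are active in heart muscle.

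Before any comparison, 1 array stood apart. Its name is treated B2KO replicate 10, its median r with other arrays was 0.573 where each other array had at least 0.831, and its median log2 deviation over the 33 genes from untreated B2KO was -4.78. It lowered the B2KO means and widened the spread that all lines share in the fit. The main counts are therefore given with all arrays and again without it. A further 7 arrays were in doubt. Treated FVB replicate 2 and treated B2KO replicate 7 lay nearer another strain background at marker probe sets, or as near to it. Untreated FVB replicate 10, C57BL/6 replicate 11, B2KO replicate 8 and B6129SF2/J replicate 8, and treated B6129SF2/J replicate 7, had weak signal at the 5′ end of Gapdh relative to its 3′ end. Counts without all 8 arrays are given as well.

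Promoters are shown for Eci1, Cpt2, Slc25a20 and Ech1, and for the pair Hadha and Hadhb. Eci1, Cpt2, Slc25a20 and Ech1 were among the 14 genes that fell in the mean of the 4 lines with all arrays. No single line had all of them past the threshold with all arrays, but B6129SF2/J did without treated B2KO replicate 10. RefSeq (GRCm38.p6) gave 34 windows of 250 bases upstream of a start site for 30 of the 34 genes. Each is written 5′ to 3′ on the strand of its gene and ends at the base before the start site. Capitals mark 3 motifs, found on either strand. The first is the GC box, GGGCGG. The second is the CCAAT box. The last is AGGTCA, the core site of nuclear receptors. Eci1 lies at chr17:24426433-24426682 on the plus strand, Cpt2 at chr4:107923590-107923839 on the minus strand, Slc25a20 at chr9:108661886-108662135 on the plus strand, Ech1 at chr7:28825088-28825337 on the plus strand, and Hadhb at chr5:30155003-30155252 on the plus strand. Hadha and Hadhb, the subunits of the mitochondrial trifunctional protein, start 273 bases apart on opposite strands, so 228 bases of the Hadhb window also lie in the window of Hadha.
Eci1: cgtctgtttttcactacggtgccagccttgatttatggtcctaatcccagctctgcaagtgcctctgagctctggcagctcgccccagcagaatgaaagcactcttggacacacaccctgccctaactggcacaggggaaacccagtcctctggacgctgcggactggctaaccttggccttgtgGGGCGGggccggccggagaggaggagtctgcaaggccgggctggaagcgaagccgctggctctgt
Cpt2: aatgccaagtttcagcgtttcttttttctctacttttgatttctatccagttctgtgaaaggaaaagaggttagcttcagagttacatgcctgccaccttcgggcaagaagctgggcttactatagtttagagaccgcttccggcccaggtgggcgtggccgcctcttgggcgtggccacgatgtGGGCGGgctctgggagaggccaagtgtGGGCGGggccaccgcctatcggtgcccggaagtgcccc
Slc25a20: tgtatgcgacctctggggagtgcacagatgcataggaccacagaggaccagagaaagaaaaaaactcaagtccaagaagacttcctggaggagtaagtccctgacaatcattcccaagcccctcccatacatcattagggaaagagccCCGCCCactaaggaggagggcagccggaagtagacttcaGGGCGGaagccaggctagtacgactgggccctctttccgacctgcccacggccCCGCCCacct
Ech1: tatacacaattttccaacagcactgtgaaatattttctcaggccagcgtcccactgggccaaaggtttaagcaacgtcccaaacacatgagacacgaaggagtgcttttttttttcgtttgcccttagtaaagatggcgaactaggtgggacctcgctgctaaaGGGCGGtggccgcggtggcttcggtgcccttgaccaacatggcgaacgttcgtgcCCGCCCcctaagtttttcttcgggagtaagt
Hadhb: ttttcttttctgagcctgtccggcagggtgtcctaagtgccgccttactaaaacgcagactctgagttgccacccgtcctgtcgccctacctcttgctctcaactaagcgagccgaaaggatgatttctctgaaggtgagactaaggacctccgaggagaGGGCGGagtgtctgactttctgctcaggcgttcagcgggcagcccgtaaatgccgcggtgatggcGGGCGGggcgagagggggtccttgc

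GC boxes were the commonest of these motifs. They stood in 22 of the 34 windows (64.7%), against 32.7% of the 32851 windows of all genes. CCAAT boxes stood in 16 windows (47.1%, against 33.8%). The core site AGGTCA was found in 5 windows (14.7%, against 14%). With 1 base before it (AAGGTCA) it was found in 1 window (2.94%, against 4.08%). The direct repeat AGGTCANAGGTCA was found in none (0.0335% of all windows). The letters of the longer motifs contain the core site, so these counts overlap. The median GC content was 59.6% in these windows and 52.4% in all, and GC boxes are themselves rich in G and C. The GC and CCAAT boxes were added after other motifs had been counted.

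Averaged over the 4 lines, genes of the inner steps of fatty acid oxidation fell with isoproterenol, and no uptake gene was called. With all arrays, 14 of the 33 genes fell and 0 rose, where 13.5% of all genes tested fell and 8.46% rose. The median difference was -0.37 over the 33 genes and -0.06 over all genes tested, and 28 of the 33 differences were negative (58.8% of all genes tested). C57BL/6 did not share this direction. The median over the 33 genes was 0.16 there, -0.34 in FVB, -0.69 in B2KO and -0.53 in B6129SF2/J. Over all genes tested the medians were 0.09, -0.005, -0.28 and -0.02 in the same order. Without treated B2KO replicate 10 the B2KO medians were -0.32 over the 33 genes and -0.08 over all genes. By step in the mean of the lines, 4 of 6 carnitine shuttle genes fell, 4 of 10 spiral genes, 4 of 4 auxiliary spiral genes and 2 of 3 electron transfer genes. No gene of the 6 for uptake and activation, the 2 for lipolysis or the 2 peroxisomal enzymes was called. When treated B2KO replicate 10 was left out, the same 14 genes fell with 2 more, Hadha and Hadhb, and Acsl5 rose, where 13.8% of all genes fell and 14.6% rose. Without 8 arrays 19 fell and 1 rose, where 12.4% and 17.5% of all genes did.

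All 4 auxiliary enzymes for unsaturated chains fell, and the fall of Eci1 was the largest among the 33 genes. Eci1, an isomerase that moves double bonds, fell by 0.87 ± 0.15 (SE; limma adjusted p = 3.83e-06), to 54.7% of its untreated level. Decr1, a dienoyl-CoA reductase, fell by 0.71 ± 0.17 (limma adjusted p = 0.0016). Ech1, a dienoyl-CoA isomerase, fell by 0.58 ± 0.14 (limma adjusted p = 0.000884), and Eci2, a second isomerase, fell by 0.50 ± 0.12 (limma adjusted p = 0.000876). All 4 fell without the array that stood apart too, by 0.75, 0.55, 0.47 and 0.45 in the same order.

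In the carnitine shuttle and its control, Cpt2, Slc25a20, Crat and Mlycd fell. Cpt2, which returns acyl chains from carnitine to coenzyme A, fell by 0.71 ± 0.18 (limma adjusted p = 0.00223). Slc25a20, the carnitine-acylcarnitine carrier, fell by 0.56 ± 0.11 (limma adjusted p = 0.000122). Crat, which couples acetyl groups to carnitine, fell by 0.59 ± 0.20, and Mlycd, which breaks down the inhibitor malonyl-CoA, fell by 0.48 ± 0.16. Cpt1a, an outer membrane enzyme that malonyl-CoA inhibits, was not called, at -0.13 ± 0.13 (limma adjusted p = 0.503). Acacb, which makes malonyl-CoA, was not called either, at -0.32 ± 0.19 (limma adjusted p = 0.207).

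Among the spiral enzymes the calls fell on Acads, Acadsb, Hadh and Acaa2. Acaa2, a thiolase of the last step, fell by 0.60 ± 0.19, Hadh, the dehydrogenase for shorter chains, by 0.47 ± 0.11, and Acads, the short-chain acyl-CoA dehydrogenase, by 0.47 ± 0.15. Acadsb, which takes short and branched chains, fell by 0.37 ± 0.12. The dehydrogenases for longer chains were not called: Acadvl was at -0.28 ± 0.21, Acadl at -0.22 ± 0.09 and Acadm, for medium chains, at -0.24 ± 0.11. Hadha (-0.53 ± 0.22) and Hadhb (-0.40 ± 0.18) missed the threshold with all arrays and passed it without treated B2KO replicate 10, at -0.32 and -0.23. Of the electron transfer genes, Etfb fell by 0.57 ± 0.19 and Etfdh, which passes electrons on to ubiquinone, by 0.43 ± 0.14. Etfa, which pairs with Etfb, was at -0.09 ± 0.15.

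**Figure D1:**
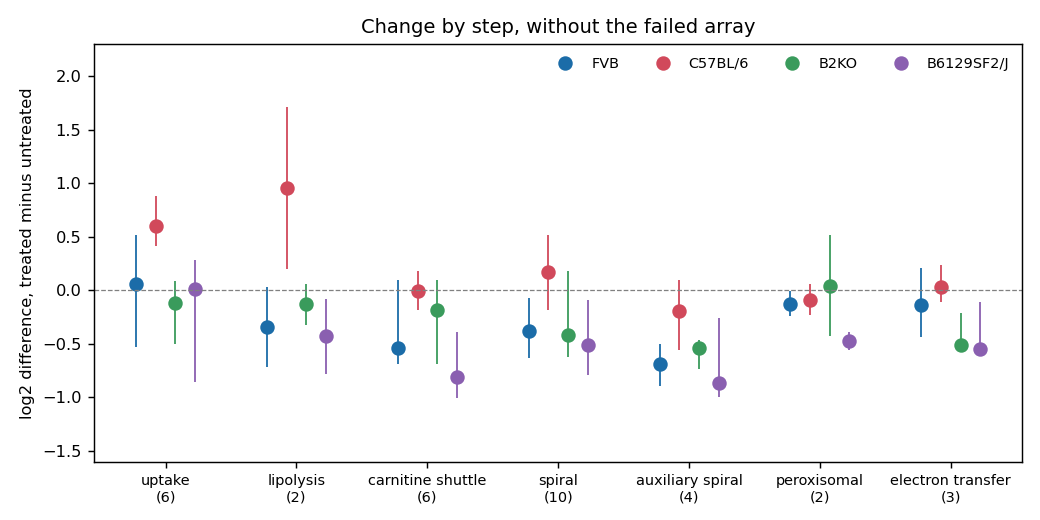
Median log2 difference, treated minus untreated, of the genes of each step (points) with the range from the lowest to the highest gene (lines), per line and without treated B2KO replicate 10; the number of genes is under each step. The auxiliary spiral lies below 0 throughout in FVB, B2KO and B6129SF2/J, and the uptake genes lie above 0 throughout in C57BL/6.

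In B6129SF2/J mice the median over the 33 genes was lower in treated arrays as a group. In all 12 treated arrays it lay below the untreated mean of the line, from -0.80 through -0.54 to -0.15. Untreated arrays ran from -0.19 through -0.07 to 0.32, and 7 of 10 were below 0 too. The highest treated array, replicate 7, lay within the untreated range. With all arrays in the fit, 4 genes fell (Slc25a20, Hadh, Eci1 and Ech1) and 0 rose, where 2.1% of all genes tested fell and 2.44% rose. Of the 33 genes 30 had a negative difference (52.8% of all genes tested), and the median was -0.53. Without treated B2KO replicate 10, which leaves every B6129SF2/J value as it was and narrows the shared spread, 12 genes fell, where 4.31% of all genes did. The 8 genes added were Cpt2, Crat, Mlycd, Acadl, Acads, Hadha, Decr1 and Etfdh. Without 8 arrays 16 fell, where 5.1% of all genes did.

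**Figure D2:**
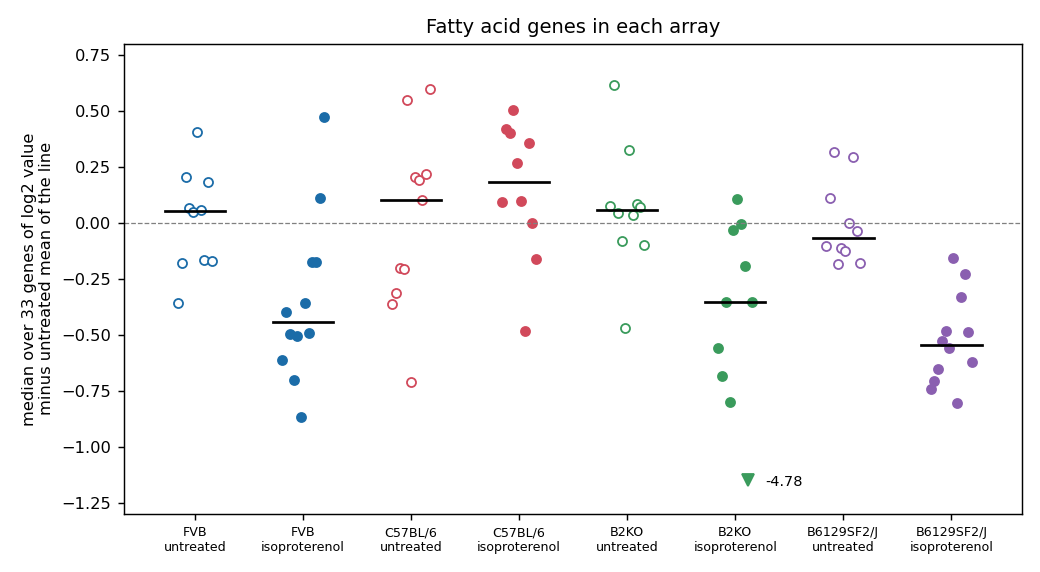
Median over the 33 genes of each array's log2 value minus the untreated mean of its line (1 point per array, open untreated, filled isoproterenol, bars at group medians). All 12 treated and 7 of 10 untreated B6129SF2/J arrays lie below 0. Treated B2KO replicate 10, drawn as a triangle at the lower edge, has -4.78.

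Eci1 in B6129SF2/J ran from 8.04 through a median of 8.48 to 8.84 in untreated mice and from 6.86 through 7.51 to 7.83 in treated mice. The groups did not overlap, and all 12 treated arrays lay below the lowest untreated one. It fell by 1.00 ± 0.29 (limma adjusted p = 0.0258), to 50.1% of the untreated level.

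Slc25a20 in the same line ran from 6.65 through 6.99 to 7.67 untreated and from 5.74 through 6.03 to 6.77 treated. The groups overlapped by a single treated array, with 11 of 12 below the untreated range. It fell by 1.01 ± 0.23 (limma adjusted p = 0.00214). Ech1 ran from 10.08 through 10.35 to 10.70 untreated and from 9.18 through 9.43 to 10.14 treated, again with 11 of 12 treated arrays below the untreated range. It fell by 0.87 ± 0.27 (limma adjusted p = 0.0397). Hadh ran from 10.41 through 10.55 to 11.10 untreated and from 9.54 through 9.81 to 10.45 treated. Its treated arrays were low with 1 exception near the lowest untreated value, and it fell by 0.78 ± 0.22 (limma adjusted p = 0.0195).

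Separation of the groups did not always go with a call. Crat in B6129SF2/J ran from 7.25 through 7.58 to 7.71 untreated and from 6.24 through 6.54 to 6.86 treated. The groups did not overlap, yet the difference of -0.93 ± 0.40 had a limma adjusted p of 0.191 with all arrays and 0.0325 without treated B2KO replicate 10. Pnpla2, the lipase of the first step of triglyceride breakdown, ran from 6.47 through 6.80 to 7.16 untreated and from 5.63 through 5.98 to 6.47 treated. Its groups did not overlap either, and its difference of -0.78 ± 0.39 had a limma adjusted p of 0.301 with all arrays, 0.0521 without treated B2KO replicate 10 and 0.0016 without 8 arrays.

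The other carnitine shuttle genes of B6129SF2/J lay lower in treated mice. Cpt2 ran from 7.74 through 8.23 to 8.52 untreated and from 7.10 through 7.45 to 7.84 treated, with an overlap of small extent. Mlycd ran from 4.43 through 4.85 to 5.58 untreated and from 3.53 through 3.88 to 4.67 treated. Both passed without treated B2KO replicate 10, at -0.72 (limma adjusted p = 0.0016) and -0.89 (limma adjusted p = 0.0207), and neither did with all arrays.

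In the spiral of the same line all 10 differences were negative, from -0.79 for Hadha to -0.09 for Acadsb. Hadha, whose product holds the hydratase and dehydrogenase of the trifunctional protein, ran from 8.94 through 9.47 to 9.99 untreated and from 8.30 through 8.64 to 9.02 treated. Hadhb, whose product holds its thiolase, ran from 9.59 through 10.00 to 10.55 untreated and from 9.23 through 9.53 to 10.08 treated. The 2 subunits thus lay lower in treated mice, each with overlapping groups. Without treated B2KO replicate 10 Hadha fell by 0.79 (limma adjusted p = 0.0268), and Hadhb, at -0.46, was not called.

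Electron transfer in B6129SF2/J was uneven. Etfdh ran from 8.86 through 9.13 to 9.47 untreated and from 8.04 through 8.59 to 9.04 treated, a difference of -0.54 ± 0.27, which passed without treated B2KO replicate 10 (limma adjusted p = 0.0491). Etfb ran from 8.47 through 8.68 to 9.17 untreated and from 7.82 through 8.22 to 8.69 treated, and was not called in either fit. Etfa ran from 9.40 through 9.59 to 10.27 untreated and from 9.22 through 9.52 to 9.98 treated. Its medians differed least of the 3, and all 3 genes had overlapping groups.

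Uptake in B6129SF2/J had no common direction. The 6 differences ran from -0.86 ± 0.38 for Slc27a1 to 0.29 ± 0.26 for Acsl5, an acyl-CoA synthetase, with 3 of 6 negative. Cd36, a fatty acid translocase of the cell surface, was at 0.09 ± 0.29 and Lpl at -0.07 ± 0.18. The 2 peroxisomal genes, Acaa1a (-0.39 ± 0.22) and Ehhadh (-0.55 ± 0.24), were not called in any of the 4 lines with all arrays. Both are dim, with a median of at most 2.45 in every group.

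B2KO mice gave 4 falls with all arrays, Cpt2, Acads, Acaa2 and Eci1, where 1.71% of all genes tested fell, and 0 rises (0.0836%). The median over all genes tested was -0.28 in this comparison, and that over the 33 genes -0.69; differences were negative for 31 of the 33 genes (80.3% of all genes tested). Once treated B2KO replicate 10 was left out, 0 of the 33 genes passed the limma threshold (0.251% of all genes fell), 15 had an unadjusted p under 0.05, and the medians were -0.32 for the 33 genes and -0.08 for all. Without 8 arrays 5 genes fell, where 0.693% of all genes did.

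For Cpt2, untreated B2KO arrays ran from 7.08 through 7.99 to 8.44 and treated ones from 0.06 through 7.22 to 7.87. The lowest of these is treated B2KO replicate 10, and all 10 treated arrays lay below the untreated mean. The difference of -1.40 ± 0.37 (limma adjusted p = 0.0286) was -0.69 without that array (limma adjusted p = 0.0517). Eci1 ran from 7.30 through 8.14 to 9.12 untreated and from 2.47 through 7.44 to 8.14 treated, with all 10 treated arrays below the untreated mean. Its difference was -1.23 ± 0.30 (limma adjusted p = 0.0201), and -0.73 without the array (limma adjusted p = 0.0746). Acaa2 moved from -1.40 to -0.62 and Acads from -1.14 to -0.60 in the same step, and neither was called without the array.

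Several B2KO differences shrank when that array was left out. Hadha was at -1.03 with all arrays, -0.17 without it and -0.60 without 8 arrays; these include untreated B2KO replicate 8, whose Hadha was 5.67 where the next lowest untreated value was 8.19. Fabp3 was at -0.98 with all arrays and -0.21 without treated B2KO replicate 10, and Hadhb at -1.07 and -0.38. For Fabp3 the treated arrays ran from 2.65 through 10.31 to 10.79 and the untreated ones from 10.01 through 10.50 to 11.55. The medians lay close, and the lowest treated value was that of replicate 10. Acaa1a was the member with the highest difference, 0.44 ± 0.23, and was not called (limma adjusted p = 0.215).

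FVB mice gave no call among the 33 genes with all arrays by limma, where 0.61% of all genes tested fell and 0.903% rose; 7 genes had an unadjusted p under 0.05. The differences were negative for 26 of 33 genes (50.7% of all genes tested), with a median of -0.34. Per array, the median over the 33 genes ran from -0.87 through -0.44 to 0.47 in treated mice and from -0.36 through 0.05 to 0.41 in untreated mice. It was below 0 in 10 of 12 treated arrays, and the other 2 were replicates 11 (0.11) and 12 (0.47). Replicates 9 to 12, with -0.17, -0.17, 0.11 and 0.47, were also those with a Gapdh 3′ signal of 10.76 to 11.09, where the other 8 had 9.66 to 10.29; the part of this in the result was not tested. All 10 spiral genes and all 4 auxiliary genes were below 0, and 4 of 6 uptake genes were above it. Without treated B2KO replicate 10, Acads, Eci1 and Decr1 fell, where 1.43% of all genes did. Without 8 arrays 12 genes fell and Acsl5 rose (0.71), where 2.7% and 4.37% of all genes did.

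Decr1 in FVB ran from 7.48 through 7.98 to 8.33 untreated and from 6.50 through 6.96 to 7.96 treated. The groups overlapped, with 9 of 12 treated arrays below the untreated range. The difference of -0.89 ± 0.34 had a limma adjusted p of 0.227 with all arrays and 0.00323 without treated B2KO replicate 10. Eci1 ran from 6.98 through 8.40 to 8.76 untreated and from 6.47 through 7.42 to 7.98 treated. All 12 treated arrays lay below the untreated mean, while the lowest untreated value, that of replicate 10 with doubtful RNA, lay among the treated ones. The difference of -0.84 ± 0.29 had a limma adjusted p of 0.136 with all arrays and 0.00298 without treated B2KO replicate 10.

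Hadh in FVB ran from 8.64 through 9.18 to 9.83 untreated and from 7.58 through 8.59 to 10.02 treated. Treated arrays were lower at the median and spread more widely, and the highest was replicate 2, which lay nearer C57BL/6 at the strain markers. The difference of -0.63 ± 0.22 was not called (limma adjusted p = 0.142). Acsl5 ran the other way, from 3.16 through 4.04 to 4.88 untreated and from 3.41 through 4.38 to 5.69 treated. Its difference of 0.51 ± 0.26 (limma adjusted p = 0.433) was the highest among the 33 genes in this line.

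In C57BL/6 hearts the uptake genes all had positive differences, and the carnitine shuttle genes lay near 0. With all arrays, Lipe alone rose and 0 genes fell, where 12.5% of all genes tested rose and 6.98% fell. The 33 genes had a median of 0.16, and all genes tested 0.09. Of the 33 differences 10 were negative (42.6% of all genes tested). Per array, the median over the 33 genes ran from -0.71 to -0.20 in untreated replicates 1 to 4 and 6. In untreated replicates 5 and 7 to 11 it ran from 0.10 to 0.60, and in treated arrays from -0.48 to 0.50. The part of this split in the result was not tested. All 6 uptake and activation genes had positive differences, from 0.42 for Fabp3 to 0.88 for Slc27a1. A second Slc27a1 probe set, given below, had a negative difference. The Gapdh 3′ signal ran from 9.22 to 10.50 in untreated and from 10.00 to 10.80 in treated C57BL/6 arrays. Its part in the result was not tested. Without treated B2KO replicate 10, Lpl (0.46), Cd36 (0.64), Acsl5 (0.59), Lipe (1.71) and Acads (0.52) rose and Eci2 fell by 0.56, where 17.9% of all genes rose and 9.16% fell. Without 8 arrays 8 rose and 1 fell, where 24% and 9.36% of all genes did. The number of negative differences depended on scaling: 10 of 33 as given, 18 after quantile normalization and 17 after each array was centred on the median of its genes.

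Lipe, the hormone-sensitive lipase, ran from -0.35 through 2.02 to 3.70 in untreated C57BL/6 arrays and from 3.08 through 3.86 to 4.58 in treated ones. The groups overlapped, with 6 of 10 treated arrays above the untreated range and all 10 above the untreated mean. It rose by 1.71 ± 0.36 (limma adjusted p = 0.000282), a 3.28-fold difference. The lowest untreated value, -0.35, was that of untreated replicate 11, with doubtful RNA, and the next lowest was 1.60. This array is part of the difference given. In this comparison the 3 brown adipocyte markers rose as well: Ucp1 by 3.05 ± 0.89, Elovl3 by 1.72 ± 0.49 and Cidea by 1.15 ± 0.37. The log2 of their summed level ran from 3.58 to 5.85 in untreated and from 5.65 to 7.92 in treated arrays. Of 5 adipocyte markers tested, 1 rose (Fabp4, by 0.62 ± 0.22), and their summed level ran from 9.40 to 10.48 and from 10.15 to 10.99. This sum was taken before log2 and was mostly Fabp4, with medians of 9.78 untreated and 10.49 treated. Car3, the next brightest, had 6.39 and 7.52. Adipoq, a defining adipocyte gene, was at 0.02 ± 0.62. The part of fat tissue in the Lipe result was not tested.

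Cd36 in C57BL/6 ran from 7.73 through 8.60 to 9.43 untreated and from 8.74 through 9.34 to 9.51 treated. Lpl ran from 9.77 through 10.14 to 10.89 untreated and from 10.25 through 10.70 to 10.92 treated. Treated arrays were high for both, all 10 above the untreated mean, and the groups overlapped: 2 treated arrays for Cd36 and 1 for Lpl exceeded the highest untreated value. With all arrays Lpl had a limma adjusted p of 0.0584 and Cd36 of 0.126; without treated B2KO replicate 10 these were 0.0205 and 0.0277.

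Eci2 was the gene with the lowest difference in C57BL/6. It ran from 5.92 through 6.60 to 7.61 untreated and from 5.10 through 6.20 to 6.52 treated, with all 10 treated arrays below the untreated mean. The difference of -0.56 ± 0.24 had a limma adjusted p of 0.0834 with all arrays and 0.0376 without treated B2KO replicate 10. Eci1 had -0.41 ± 0.29 in this line, and the other 2 auxiliary genes, Ech1 and Decr1, had 0.02 and 0.10. For the carnitine shuttle the 6 differences lay between -0.19 and 0.18.

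**Figure D3:**
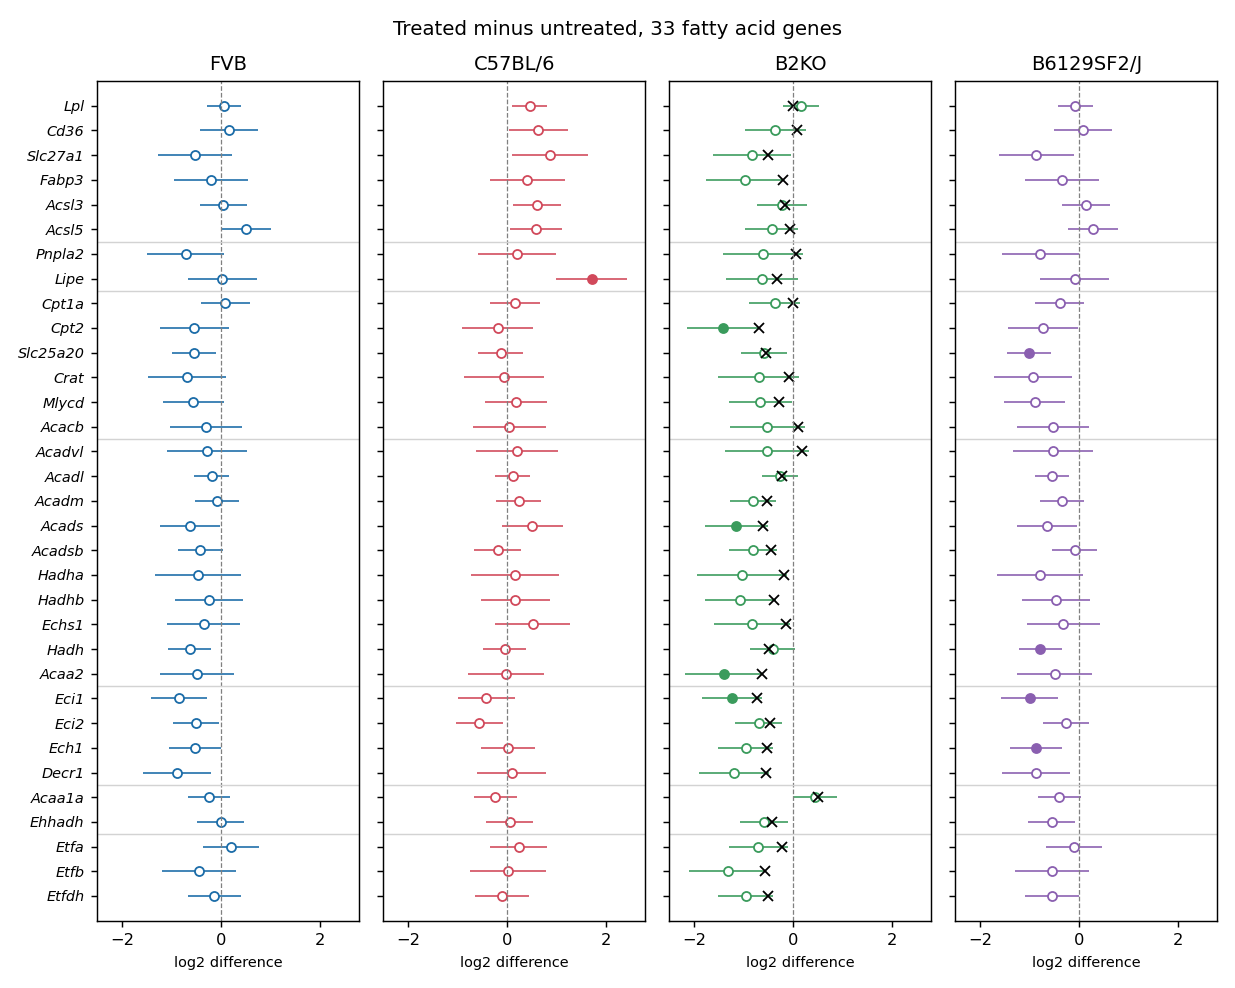
Log2 difference, treated minus untreated, of each of the 33 genes in each line with all arrays (circles, filled where limma adjusted p is under 0.05, lines for 95% confidence intervals); black crosses in B2KO give the value without treated B2KO replicate 10. Most circles lie left of 0 in FVB, B2KO and B6129SF2/J, and Lipe in C57BL/6 lies at 1.71.

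No gene of the 33 fell past the threshold in more than 2 lines. With all arrays Eci1 fell in 2 lines, B2KO and B6129SF2/J, 6 genes fell in 1 line and 26 in none, where 1.24% of all genes tested fell in 2 or more lines. When treated B2KO replicate 10 was left out, no B2KO call remained, and Acads, Eci1 and Decr1 each fell in FVB and B6129SF2/J, 10 genes in 1 line and 20 in none, where 1.74% of all genes fell in 2 or more lines. With all arrays 9 genes had negative differences in all 4 lines and 17 in 3 lines, and without that array 9 and 14 did. The 4 effects have their own untreated arrays but share 1 estimate of the spread.

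Whether the effect differed between lines was tested directly. For the mean of FVB and B2KO minus C57BL/6, 3 of the 33 genes were lower, Slc27a1, Lipe and Acads, and 0 were higher, where 6.84% of all genes tested were lower and 2.01% higher. The estimate was negative for 32 of the 33 genes (70.1% of all genes tested). Slc27a1, a fatty acid transporter, differed by -1.56 ± 0.47 (limma adjusted p = 0.0273), Lipe by -2.01 ± 0.44 (limma adjusted p = 0.00224) and Acads by -1.40 ± 0.38 (limma adjusted p = 0.0131). These 3 were called without treated B2KO replicate 10 too, along with Fabp3 (-0.62), a cytosolic fatty acid binding protein, and Decr1 (-0.82), where 7.28% of all genes were lower. Without 8 arrays 13 were lower, where 13.7% of all genes were.

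Single lines against C57BL/6 were compared too, and each of these comparisons uses the C57BL/6 arrays. In B2KO, Slc27a1 (-1.71), Lipe (-2.33), Acadm (-1.04) and Acads (-1.66) were lower, where 8.93% of all genes tested were, and without treated B2KO replicate 10 Lipe and Acads were (4.25% of all genes). In B6129SF2/J, Slc27a1 (-1.74) and Lipe (-1.79) were lower, where 3.27% of all genes were, and without that array Fabp3, Acads, Ech1 and Decr1 were too (7.09% of all genes). In FVB 0 genes were called with all arrays (1.03% of all genes lower), and without it Lipe (-1.68), Acads (-1.14) and Decr1 (-0.99) were lower (2.62% of all genes). Between FVB, B2KO and B6129SF2/J limma called no difference of effects among the 33 genes, with all arrays or without treated B2KO replicate 10. The share of all genes called was 0% for B2KO minus FVB in both fits, 0.0167% and 0.0334% for B6129SF2/J minus FVB, and 0.092% and 0.0669% for B6129SF2/J minus B2KO.

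Acads had opposite shifts of its median in C57BL/6 and FVB. In C57BL/6 it ran from 4.60 through 5.67 to 6.08 untreated and from 5.28 through 5.97 to 6.73 treated. In FVB it ran from 5.26 through 5.99 to 6.31 untreated and from 4.71 through 5.21 to 6.31 treated. The treated median was thus above the untreated one in C57BL/6 and below it in FVB, and the groups overlapped in both lines. Untreated C57BL/6 arrays were split by number. Replicates 1 to 4 and 6 had 4.60 to 5.16, and replicates 7 to 11 had 5.80 to 6.08, near the treated median. The part of this split in the Acads result was not tested.

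Slc27a1 ran from 2.40 through 3.95 to 5.13 in untreated and from 4.24 through 4.76 to 5.62 in treated C57BL/6 arrays. In B6129SF2/J it ran from 4.64 through 5.16 to 5.51 untreated and from 3.76 through 4.22 to 5.10 treated. Treated arrays were high in the first line and low in the second, where 10 of 12 lay below the untreated range. A second Slc27a1 probe set gave -0.15 in C57BL/6 and -0.92 in B6129SF2/J.

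**Figure D4:**
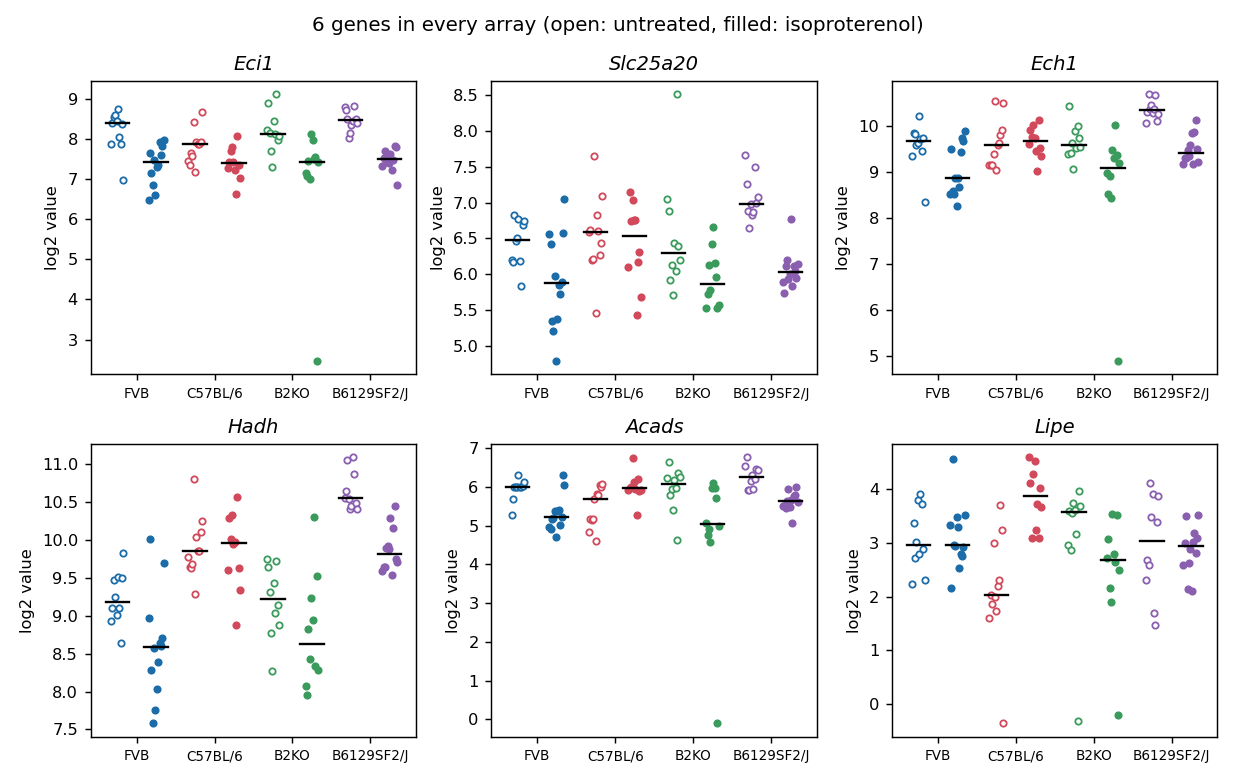
Log2 value of 6 genes in every array (open untreated, filled isoproterenol, bars at group medians), by line. Treated and untreated B6129SF2/J arrays do not overlap for Eci1, and the lone low points for Eci1, Ech1 and Acads in treated B2KO are replicate 10.

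Untreated lines differed at baseline in some of the genes. The untreated C57BL/6 arrays were split as described above. Their Gapdh 3′ signal ran from 9.22 to 10.50, and that of untreated B6129SF2/J from 10.15 to 10.99. The part of this in the baseline differences was not tested, and these comparisons were not repeated under other scaling. Untreated B6129SF2/J exceeded untreated C57BL/6 in 5 genes, where 3.59% of all genes tested were higher: Slc27a1 by 1.18 ± 0.39, Acadm by 0.82 ± 0.23, Acadl by 0.79 ± 0.18, Hadh by 0.75 ± 0.22 and Lpl, the lipase that frees fatty acids from lipoproteins, by 0.66 ± 0.18. With treated B2KO replicate 10 left out, 18 genes were higher, where 8.26% of all genes were. Against untreated FVB it was higher in Lpl (0.56 ± 0.18) and Hadh (1.42 ± 0.23), where 4.83% of all genes were, and in 8 genes without that array (8.94%). Hadh was lower in untreated FVB than in untreated C57BL/6, at -0.67 ± 0.22, where 7.81% of all genes were lower. Without that array Hadh was lower (10.5% of all genes) and Lipe (0.95) and Echs1 (0.70) were higher (7.32%). No gene of the 33 differed between untreated B2KO and FVB by limma (0.0167% of all genes tested).

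Hadh levels depended on the probe set. A second probe set gave -1.33 for untreated FVB against C57BL/6 and 2.08 for B6129SF2/J against FVB, the same signs as above. The remaining one gave -3.82 and 0.48, and for isoproterenol in C57BL/6 it gave -3.19 where the brightest gave -0.05. Probe sets disagreed for other genes in C57BL/6 too. For Cpt1a the 2 dimmer probe sets gave -1.54 and -1.28 against 0.16 for the brightest, for Hadhb the others gave -0.84 and -0.08 against 0.17, and for Decr1 the other gave -0.77 against 0.10. In B2KO and B6129SF2/J that Decr1 probe set gave -1.20 and -1.17, where the brightest gave -1.19 and -0.86.

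Within groups the genes varied together from array to array. After subtraction of group means, the median correlation over all pairs of the 33 genes was 0.54 over 85 arrays and 0.36 over the 84 without treated B2KO replicate 10. Against all other genes tested the median was 0.31 and 0.18. These are descriptions, since the values of an array share its RNA quality and scaling. Etfa and Etfdh had 0.94 and 0.86, Acadm and Hadhb 0.87 and 0.94. Hadha and Hadhb, which share a promoter region, had 0.86 with all arrays and 0.41 without that array.

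Other genes of fatty acid handling were followed in 5 further lists. In the mean of the 4 lines 13.5% of all genes tested fell and 8.46% rose with all arrays, and 13.8% and 14.6% without treated B2KO replicate 10. A list of mainly mitochondrial acyl-CoA enzymes held 17 genes, among them Acaca, Echdc1 and Etfrf1, which are not such enzymes. Of the 17 genes, 10 fell and 0 rose in that mean, in both fits. Ivd, which breaks down leucine, fell by 1.00 ± 0.26 in FVB, 1.19 ± 0.26 in B6129SF2/J and 1.33 ± 0.28 in B2KO, or 1.01 there without treated B2KO replicate 10. Of 4 PPAR targets tested, 3 fell and 0 rose in the mean, in both fits. Acot1, a cytosolic acyl-CoA thioesterase, fell in every line: by 2.22 ± 0.27 in FVB, 1.30 ± 0.28 in C57BL/6, 1.51 ± 0.28 in B2KO and 1.49 ± 0.27 in B6129SF2/J. Acot2, its mitochondrial relative, fell by 1.22 ± 0.32 in B6129SF2/J.

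Of 14 other peroxisomal genes, 7 fell and 2 rose in the mean, in both fits. In C57BL/6 Acaa1b, a peroxisomal thiolase, rose by 2.51 ± 0.47 and Acox3 by 1.32 ± 0.35, while Abcd2, a peroxisomal fatty acid transporter, fell by 1.54 ± 0.27. Of 15 lipid droplet and triglyceride genes, 6 fell and 0 rose, and 6 and 1 without treated B2KO replicate 10. Gpat3 fell by 0.89 ± 0.24 in B6129SF2/J, Dgat2 by 1.46 ± 0.34 in B2KO (-0.93 and not called without treated B2KO replicate 10), and Mgll, a monoglyceride lipase, rose by 1.25 ± 0.36 in C57BL/6. Of 13 uptake partners, 4 fell and 0 rose, and 4 and 1 without that array. Angptl4, an inhibitor of Lpl, fell by 1.52 ± 0.36 in B6129SF2/J, while in C57BL/6 Vldlr fell by 1.03 ± 0.24 and Lmf1, which matures Lpl, rose by 0.99 ± 0.30.

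Markers of cell types were read beside these results. With all arrays, 0.903% of all genes tested rose in FVB, 12.5% in C57BL/6, 0.0836% in B2KO and 2.44% in B6129SF2/J, so the marker counts of different lines have different backgrounds. All 12 cardiomyocyte markers passed the filter on dim genes. None of them was called by limma in FVB, B2KO or B6129SF2/J, and 1 rose in C57BL/6, where 6 had an unadjusted p under 0.05. Their median difference was 0.52 in C57BL/6 and -0.23 in B6129SF2/J. The log2 of their summed level ran from 14.26 to 15.11 in untreated and from 13.95 to 15.17 in treated B6129SF2/J arrays. Of 9 fibroblast markers, 2 rose in FVB, 5 in C57BL/6, 0 in B2KO and 3 in B6129SF2/J, where their summed level ran from 9.90 to 10.28 untreated and from 10.34 to 11.76 treated. Without treated B2KO replicate 10, 5 cardiomyocyte markers rose in C57BL/6 and 1 fell in B6129SF2/J, and fibroblast markers rose in the numbers 5, 6, 1 and 6. Of 9 endothelial markers, 7 rose in C57BL/6, where 12.5% of all genes did, and none was called by limma in the other lines, where 1 in FVB, 2 in B2KO and 0 in B6129SF2/J had an unadjusted p under 0.05. The part of a changed cell make-up in the falls of the oxidation genes was not tested.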

How the data were processed

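Heart RNA was hybridised to 86 Affymetrix arrays. The authors deposited linear intensity per probe set. GCRMA, of no stated version, is named in the submitters' processing notes. The median of each array is 1, and log2 was taken here of the deposited values. Probe sets were named from the platform annotation, with symbols updated through RefSeq genes (GRCm38.p6; 99.4% matched). The probe set of highest mean stood for its gene, and a gene was tested if its highest group mean exceeded log2 0, the median of all values.

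Treated B2KO replicates 4 and 9 were taken as 1 array deposited again (r over 0.9999) and averaged, which left 85. Limma 3.58.1 in R 4.3.3 fitted the 8 groups together and moderated the variances by empirical Bayes without a trend. Two-sided p-values had Benjamini-Hochberg adjustment over 11962 genes and adjusted p under 0.05 as the threshold, in 16 comparisons. An array failed at a median r under 0.7, was in doubt by RNA where the Gapdh control probe sets differed by over 2 log2 units between the 3′ and 5′ ends, and was in doubt by strain where, at 200 strain marker probe sets, its own background was no nearer than 0.9 of the distance to another. As first written, the strain rule marked 20 arrays, because FVB and B2KO lie close; they were then taken as 1 background, an alternative chosen after seeing the data.

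The genes and lists were chosen with earlier results of these data known. All members were named, and of each other list up to 3 genes per line effect with the largest change past the threshold. The fit was tested on simulated data with known changes. In a single line, 4.76% to 7.94% of changes of 0.5 log2 were found and 55.9% to 67.6% of changes of 1 log2. In the mean of the 4 lines 66.7% and 98.5% were found. A gene not called in a single line may therefore still have changed. The alternatives were scaling, filter, probe sets, moderation, array weights, a replicate block, single lines and left-out arrays. The number of arrays limits the precision: the median SE of a member's effect was 0.29 in FVB.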

Additional observations from a re-analysis of the deposited data

Results flagged for a closer look

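In 48 of 170 groups of values tested, 1 array lay far from the others of its group by Dixon's ratio, where chance gives about 1 in 20 groups. Only the 5 groups of 10 arrays were tested, and treated FVB, untreated C57BL/6 and treated B6129SF2/J, with 11 or 12 arrays, were not. Of these, 28 were in treated B2KO replicate 10, whose median deviation over the 33 genes was -4.78. It was high for Lpl (12.07) and low for Cd36 (4.90), Fabp3 (2.65), Acsl5 (0.40), Pnpla2 (-0.13), Lipe (-0.20), Cpt1a (-0.35), Cpt2 (0.062), Crat (1.06), Mlycd (0.30), Acacb (-0.20), Acadvl (1.61), Acadm (6.18), Acads (-0.11), Acadsb (1.49), Hadha (0.021) and Hadhb (2.32). It was also low for Echs1 (1.02), Acaa2 (0.27), Eci1 (2.47), Eci2 (3.74), Ech1 (4.89), Decr1 (0.77), Ehhadh (0.18), Etfa (4.19), Etfb (0.49) and Etfdh (3.85).

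Untreated B2KO replicate 8, with doubtful RNA, was low for Slc27a1 (0.072), Pnpla2 (2.41), Lipe (-0.31), Crat (2.59), Mlycd (0.64), Acacb (1.99), Acadvl (4.02) and Hadha (5.67). It was high for Acsl3 (1.27), Acsl5 (5.33), Slc25a20 (8.51) and Acaa1a (3.10). Untreated FVB replicate 10, also with doubtful RNA, was low for Cd36 (6.83), Slc27a1 (2.24), Crat (6.16), Hadha (7.31), Eci1 (6.98), Ech1 (8.36) and Etfdh (6.83). Untreated B6129SF2/J replicate 1 was low for Slc27a1 (4.64).

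The effect of isoproterenol differed from that in C57BL/6 by a test of the difference for 9 results, with limma adjusted p under 0.05. These comparisons overlap, and all use the C57BL/6 arrays. In B2KO the results were Slc27a1 (-1.71), Lipe (-2.33), Acadm (-1.04) and Acads (-1.66), where 8.93% of all genes tested were lower. Without treated B2KO replicate 10, Lipe and Acads alone were called there. In B6129SF2/J the results were Slc27a1 (-1.74) and Lipe (-1.79), where 3.27% of all genes were lower. For the mean of FVB and B2KO they were Slc27a1 (-1.56), Lipe (-2.01) and Acads (-1.40), where 6.84% of all genes were lower.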

How the results depend on the processing

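Counts of the 33 genes are given as all arrays gave them, then as changed. Unless a value shows it, the cause was not tested. Calls over all genes moved with the settings too, so a higher count here need not be an excess. For FVB, all arrays gave 73 genes lower and 108 higher, and array weights 1797 in either direction. For C57BL/6 these were 835 and 1500, against 3956 of 12151 genes without the failed array and those of doubtful line. With B2KO arrays only, 0 genes were called. FVB, lower (0): 5 with quantile normalization or array centring, 18 with array weights, 2 with FVB arrays only, and 3, 1, 4, 3 and 12 without the failed array, without also those of doubtful line, without also those of doubtful RNA, without 3 arrays and without 8 arrays. In this order of left-out arrays, C57BL/6 higher (1) gave 5, 9, 8, 6 and 8, B6129SF2/J lower (4) gave 12, 19, 18, 13 and 16, and the difference of FVB and B2KO from C57BL/6, lower (3), gave 5, 7, 10, 5 and 13. FVB higher (0) became 1 without those of doubtful RNA and without 8 arrays. C57BL/6 lower (0) became 1 in all 5, 2 with quantile normalization or weights, 3 with centring and 6 with all probe sets averaged. C57BL/6 higher became 2 with quantile normalization, 8 with weights and 5 alone. B2KO lower (4) became 0, 2 and 1 without the failed array, doubtful lines and 3 arrays, 7 with centring, 2 with no filter and 10 with a stricter one, 10 with both duplicates, 15 with weights and 0 alone; B2KO higher (0) became 1 with weights. B6129SF2/J lower became 7 with quantile normalization, 11 with centring, 23 with weights and 21 alone. The mean of 4 lines, lower (14), became 23 with weights, and higher (0) became 1 with quantile normalization, centring, weights and each set of left-out arrays. The difference from C57BL/6 became 15 with weights, and 5 lower and 1 higher with probe sets averaged. With probe sets averaged, Cpt1a (-0.89) and Acadl (-0.50) reversed in C57BL/6.

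Leaving out 1 array at a time gave 0 to 3 lower in FVB, 0 to 1 lower and 1 to 5 higher in C57BL/6, 0 to 12 lower in B2KO, 3 to 12 lower in B6129SF2/J, 14 to 18 lower and 0 to 1 higher in the mean, and 2 to 5 lower in the difference from C57BL/6. Without treated B2KO replicate 10 there were 3 lower in FVB, 1 lower and 5 higher in C57BL/6, 0 lower in B2KO, 12 lower in B6129SF2/J, 1 higher in the mean and 5 lower in the difference. FVB replicate 2 (treated) gave 1 in FVB. The C57BL/6 higher count was 4 without untreated C57BL/6 replicate 11, and 2 without untreated C57BL/6 replicate 5, 7, 8 or 10, treated C57BL/6 replicate 7 or 8, or untreated B2KO replicate 8. The B2KO count moved with 19 arrays. It was 1 without untreated B2KO replicate 6 or 9, and 2 without untreated replicate 2, 7 or 10 or treated replicate 2 or 4. It was 7 without untreated B2KO replicate 8, untreated FVB replicate 10 or treated C57BL/6 replicate 7, and 8 without treated B2KO replicate 11 or untreated C57BL/6 replicate 6. It was 9 without treated B2KO replicate 8, 10 without untreated replicate 5 or treated replicate 3 or 7, and 12 without treated replicate 5 or 6. With the replicate block 0 were lower in FVB, 1 was higher in C57BL/6, 4 were lower in B2KO, 4 in B6129SF2/J, 14 in the mean and 3 in the difference, as without it. Arrays of the same number in different groups had a median correlation of 0.0036 over 280 pairs, and 16.4% of these pairs were above 0.1. The same number thus gave no general pairing. This check cannot see pairing in a few groups or runs of adjacent numbers within a group. Array number, RNA quality and the shared spread limit what can be told.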
